A study of Mus musculus with 6 samples.

Results

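Among the stages of an EMT and MET model, 113 genes were highest in reverted epithelial cells only. The genes were chosen by their own measured values: in each library the deposited coverage of a gene was divided by the library total and expressed in ppm of that total, and a gene was kept where the lower of both reverted libraries was at least 1 ppm and at least 3 times the highest of the 4 other libraries. Of 17428 genes in the table, 113 passed. RNA-seq was run on EpH4, one mouse mammary epithelial cell line that grows as an epithelial sheet, in 3 stages with 2 biological replicates each. E cells were not exposed to TGFβ1, M cells had received TGFβ1 for 7 days, and RE cells had received it for 7 days and were then kept in normal medium for another 4 days. All stages were grown with serum, insulin and antibiotics, and the labels set them apart by the cytokine being absent, on, or on and then off. RE cells were also 4 days longer in culture than M cells, and that time and the withdrawal cannot be told apart. RNA came from whole cultures, so a larger share of cells with a transcript and more of that transcript per cell cannot be told apart.

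TGFβ1 is a secreted cytokine that drives epithelial cells into an epithelial-to-mesenchymal transition (EMT), in which they loosen junctions, remodel actin and lay down matrix. Removal of the cytokine allows mesenchymal-to-epithelial transition (MET). A gene that is low both before and during TGFβ1 and high after its removal follows neither a purely epithelial nor a purely mesenchymal pattern, and such genes are the subject here.

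The libraries held between 35782513 and 47928556 reads' worth of coverage, counting 50 bases as 1 read. Levels below are coverage in ppm after TMM scaling, which removes overall shifts between libraries ("normalized coverage"), and 3 reads' worth, 0.0632 to 0.0787 ppm depending on the library, was taken as the floor of detection; this covers counting error only. Luminal epithelial markers (7 of 8 in the table) summed to 1536 to 1867 ppm in E, 1326 to 1350 ppm in M and 853 to 896 ppm in RE, with Krt19 near 0 throughout. The luminal markers did not move alike. Krt18 went from a mean of 748 ppm in E to 290 ppm in RE, whereas Cdh1 stayed at 303, 274 and 267 ppm in E, M and RE. Fibroblast markers (7 of 8) summed to 136 to 167 ppm in E, 997 to 1134 ppm in M and 1065 to 1246 ppm in RE, although Thy1 was at or near 0 in every library. Between M and RE, Pdgfrb went up from a mean of 434 ppm to 746 ppm, and Col1a1 went down from 497 ppm to 235 ppm. Myoepithelial markers (7 of 7) summed to 309 to 375 ppm in E, 784 to 899 ppm in M and 499 to 500.1 ppm in RE, mostly Krt14. Marker sums reached at most 37.5 ppm for leukocytes, 9.05 ppm for adipocytes, 2.75 ppm for endothelium and 1.04 ppm for nerve, with Ptprc and Cd3e at or near 0. Each of the fibroblast and myoepithelial lists contains 1 gene of the 113, Dcn and Cnn1 respectively, and the part of the fibroblast sum in the levels below was not tested.

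The 113 genes took up 0.0993% and 0.107% of normalized coverage in the E libraries, 0.0933% and 0.101% in the M libraries, and 0.579% and 0.512% in the RE libraries. The ratio that chose them, the lower RE library over the highest E or M library, ran from 3.00 to 40.6 with a median of 4.00. It was at least 5 for 35 genes and at least 10 for 8 genes. Mean levels in RE spanned 1.10 to 522 ppm with a median of 14.5 ppm, and the 10 highest genes carried 51.9% of the summed RE level. In 34 genes no E or M library reached 1 ppm. These levels are what the rule used, so they are given as a description and no test of RE against E or M is reported for any of these genes. The boundary was not marked by a gap, since the last genes inside, 5430435G22Rik, Scarf2 and Ppargc1a, had ratios of 3.00, 3.03 and 3.04, and the first ones outside, Itih2, Col6a1 and Sema4a, had 3.00, 2.99 and 2.99.

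**Figure D1:**
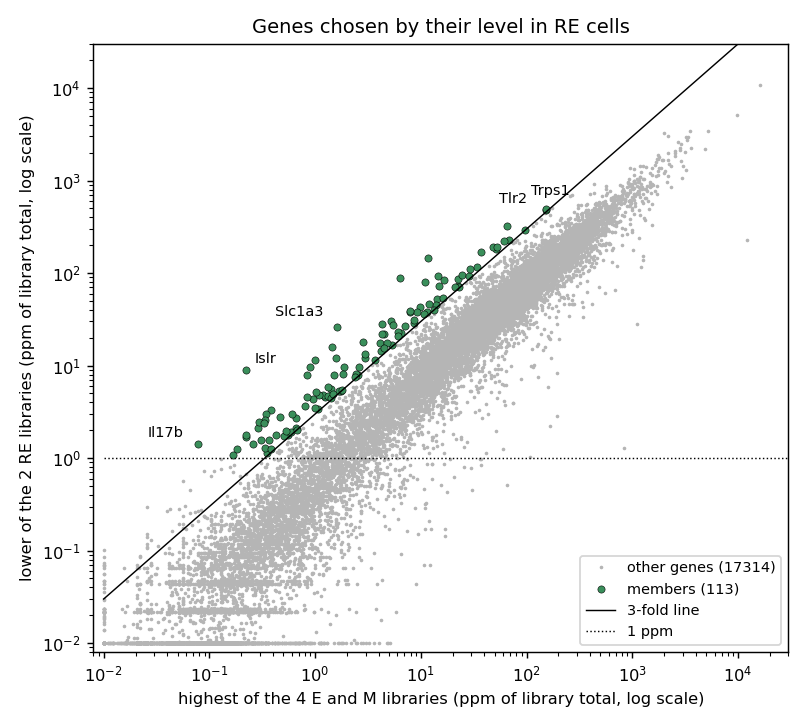
Each point is a gene, with the highest of the 4 E and M libraries on the horizontal axis and the lower RE library on the vertical axis, both in ppm of the library total on log scales; values under 0.01 ppm are drawn at 0.01. The 113 chosen genes (green) lie on or above the 3-fold line and the 1 ppm line, most of them close to the 3-fold line, with Islr farthest from it, followed by Il17b and Slc1a3.

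The number of genes that pass depends on single libraries: the count was 180 without E replicate 1 and 174 without RE replicate 2. Leaving out a library can only loosen the rule, so all of the 113 stay in by construction. The same rule turned to the other stages gave 79 genes for E only and 173 for M only, and the mirrored rule for genes lowest in RE gave 14. Within RE, replicate 1 was above replicate 2 in 89 of the 113 genes (78.8%, against 52.7% of all genes tested), with a median ratio of 1.14 against 1.01 over all genes tested. The RE libraries differed by over 1.5-fold in 18 of the genes, among them Islr, Masp1, Adamtsl2 and Dcn. Among genes with a transcript length in the GENCODE M21 annotation (110 of 113), the median of the longest transcript was 4131 bases, against 3351 bases over 12973 genes tested, and the median GC content was 49.5% against 49.9%. Only 1 pair, Edar and Sh3rf3, were neighbours in the RefSeq gene order among genes of the table.

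Upstream sequences are shown for 6 genes on which the results below turn: Rassf4, Edar, Mme, Prelp and Galntl2, which fell most in M cells, and Islr, which had the largest ratio. Each line gives the 150 bases before the annotated start of the gene, 5′ to 3′ on the strand of the gene, from the RefSeq promoters of GRCm38.p6. That build is newer than the one the reads were mapped to. Motif matches are in capitals. They are Rassf4 at chr6:116673837-116673986 on the minus strand, Edar at chr10:58675697-58675846 on the minus strand, Mme at chr3:63295061-63295210 on the plus strand, Prelp at chr1:133921402-133921551 on the minus strand, Galntl2 at chr14:32028953-32029102 on the plus strand, and Islr at chr9:58158555-58158704 on the minus strand.
Rassf4: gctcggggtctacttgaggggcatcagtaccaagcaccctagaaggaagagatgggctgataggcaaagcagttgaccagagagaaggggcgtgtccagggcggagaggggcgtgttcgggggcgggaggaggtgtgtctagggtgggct
Edar: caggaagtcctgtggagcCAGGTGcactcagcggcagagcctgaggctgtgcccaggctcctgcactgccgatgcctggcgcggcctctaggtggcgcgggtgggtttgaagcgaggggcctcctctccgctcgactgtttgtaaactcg
Mme: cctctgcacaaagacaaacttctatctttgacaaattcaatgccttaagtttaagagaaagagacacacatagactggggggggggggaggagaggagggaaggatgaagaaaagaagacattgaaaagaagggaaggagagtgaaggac
Prelp: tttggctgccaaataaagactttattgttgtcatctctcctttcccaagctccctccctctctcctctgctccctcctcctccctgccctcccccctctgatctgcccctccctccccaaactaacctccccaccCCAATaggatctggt
Galntl2: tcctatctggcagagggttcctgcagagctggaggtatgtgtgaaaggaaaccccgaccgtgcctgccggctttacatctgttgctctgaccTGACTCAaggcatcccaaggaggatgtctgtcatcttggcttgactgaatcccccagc
Islr: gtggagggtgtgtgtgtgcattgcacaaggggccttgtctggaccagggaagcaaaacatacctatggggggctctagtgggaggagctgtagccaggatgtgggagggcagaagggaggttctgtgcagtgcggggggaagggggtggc

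Both strands were searched for AP-1 (TGANTCA), CRE (TGACGTCA), STAT (TTCNNNGAA), forkhead (TGTTTAC), the Snail and Zeb E-box (CACCTG), another E-box (CAGCTG), the Smad palindrome (GTCTAGAC), TEAD (CATTCC), the D-box (TTATGNAA), the CCAAT box, the words of NF-kB and the glucocorticoid receptor, and the TATA box (TATAAA). Edar held 1 Snail and Zeb E-box, read on the opposite strand, a word found in 10.5% of the 27025 promoters over the same 150 bases. Galntl2 held 1 AP-1 word (4.27% of promoters) and Prelp 1 CCAAT box (25.3%). Rassf4, Mme and Islr held none of these words, but Mme has 3 annotated promoters and only the printed one was searched. No matches overlapped, and a match is a description of the letters and not a site of binding. Promoters were at hand for 78 of the 113 genes (69.0%), which is too few for a share of motifs over all of them.

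The 15 matrix genes summed to 881 and 773 ppm in RE, against 87.0 to 162 ppm in E and M. Islr, a cell-surface leucine-rich-repeat protein of stromal cells, had the largest ratio. It was measured at 0.0463 and 0.131 ppm in E, 0 and 0.244 ppm in M, and 16.6 and 8.64 ppm in RE. Both RE libraries were far above the other 4, which sat near the floor, and the RE libraries themselves differed by 1.92-fold. Adamtsl2, a secreted protein that binds fibrillin microfibrils, stood at 1.30 and 0.752 ppm in E, 0.262 and 1.23 ppm in M, and 25.8 and 15.3 ppm in RE. Its relative Adamtsl4, also a microfibril-associated protein, was more abundant, at 30.1 and 35.0 ppm in E, 26.7 and 37.3 ppm in M, and 164 and 164 ppm in RE. For both genes the E and M libraries overlapped and RE was clear of them.

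Ogn, Prelp, Dcn and Bgn are small leucine-rich proteoglycans, which bind collagen fibrils and growth factors. Ogn was the most abundant of the 4 in RE, at 43.3 and 36.3 ppm in E, 11.1 and 8.50 ppm in M, and 231 and 187 ppm in RE. Bgn had 4.67 and 4.85 ppm in E, 7.41 and 6.97 ppm in M, and 24.5 and 21.7 ppm in RE. The proteoglycans did not share a pattern before reversion: Ogn, Prelp and Dcn were lower in both M libraries than in E, whereas Bgn was higher in both. Matn4, a matrilin that links matrix filaments, stood at 13.3 and 9.99 ppm in E, 3.02 and 3.38 ppm in M, and 97.6 and 70.4 ppm in RE. Leprel1 (P3h2), which hydroxylates prolines of collagen chains in the endoplasmic reticulum, had 27.5 and 47.9 ppm in E, 20.1 and 22.3 ppm in M, and 184 and 176 ppm in RE. Matn4 and Leprel1 thus had lower levels in M than in E and their highest in RE. The other matrix genes of the group, Ccdc80, Clec3b, Fbln5, Kazald1, Mmp2 and Wisp2, had mean RE levels between 2.18 and 69.0 ppm.

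Secreted signals formed a further group of 13 genes. Masp1, a serine protease that starts the lectin pathway of complement, was at 2.06 and 2.96 ppm in E, 7.19 and 5.16 ppm in M, and 129 and 85.1 ppm in RE. Angpt1, the ligand that activates the endothelial receptor Tek, stood at 10.4 and 8.09 ppm in E, 3.16 and 3.23 ppm in M, and 159.5 and 140.0 ppm in RE. Angpt1 was 16.2-fold higher in RE than in E and 46.9-fold higher than in M by group means. Angpt4, another ligand of the same receptor, was lower, with 1.5 and 2.66 ppm in E, 3.5 and 4.05 ppm in M, and 14.9 and 11.1 ppm in RE. Tek itself was listed at 0.0838 and 0.0839 ppm in RE and did not pass the filter for testing. Sema3c, a secreted semaphorin that signals through neuropilins and plexins, had 52.4 and 57.2 ppm in E, 19.8 and 29.7 ppm in M, and 218 and 220.1 ppm in RE. Sema3c was lowest in M, and its RE replicates were close together.

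Cxcl2, a chemokine that attracts neutrophils, was 1.67 and 1.17 ppm in E, 0.242 and 0.211 ppm in M, and 9.42 and 10.4 ppm in RE. The growth factor Fgf1 was measured at 0.697 and 0.638 ppm in E, 1.49 and 2.04 ppm in M, and 10.6 and 7.79 ppm in RE. In Fgf1 the 3 stages did not overlap, with E lowest and M between E and RE. Il17b, an interleukin 17 family cytokine, had the second-largest ratio of the 113 genes at 17.9, but from a low level of 1.88 and 1.36 ppm in RE, with both M libraries at the floor. It falls outside the rule for named genes and was picked after its values were seen. The remaining secreted genes were Chrdl1, Ntng1, Pi15, Rnase10, Sepp1 and 1100001G20Rik, with mean RE levels from 1.34 to 92.3 ppm.

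Receptors, adhesion molecules and enzymes of the cell surface counted 20 genes. Tlr2, the innate receptor for bacterial lipoproteins, was high in all stages, at 137 and 62.2 ppm in E, 147 and 136 ppm in M, and 509 and 466 ppm in RE. Its E libraries differed from each other by more than the stage means of E and M did. Per kilobase of its longest transcript Tlr2 had the highest RE level of the 113 genes, 162 ppm per kilobase, followed by the molybdenum cofactor enzyme Mocs1 at 86.0 and Ogn at 81.5 ppm per kilobase. Edar, the ectodysplasin receptor of developing hair, teeth and glands, was at 7.99 and 9.19 ppm in E, 0.0730 and 0.0991 ppm in M, and 55.3 and 42.0 ppm in RE. Coverage of Edar in M came to 3.06 and 4.06 reads' worth, just over the floor, so its folds against M are imprecise. Mme (neprilysin), a peptidase on the surface of myoepithelial and other cells, had 21.8 and 17.8 ppm in E, 1.12 and 0.610 ppm in M, and 126 and 92.5 ppm in RE. Edar was near absent in M, Mme was low but well above the floor, and they were 5.66-fold and 5.52-fold higher in RE than in E by group means.

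Plxnb3, a receptor for semaphorins, had 0.435 and 0.592 ppm in E, 0.409 and 0.930 ppm in M, and 8.06 and 7.69 ppm in RE. Mc5r, a melanocortin receptor of exocrine glands, was listed at 0.324 and 0.971 ppm in E, 0.807 and 1.75 ppm in M, and 18.7 and 11.7 ppm in RE. In both receptors the E and M libraries overlapped, and only RE stood clear. Ptger4, a receptor for prostaglandin E, had 7.00 and 6.36 ppm in E, 1.67 and 2.19 ppm in M, and 38.2 and 37.5 ppm in RE. Prlr, the prolactin receptor of the mammary gland, was at the floor in both M libraries and at 2.69 and 2.32 ppm in RE, against 0.228 and 0.310 ppm in E. The other surface genes were Alpl, Antxr1, Fat2, Gprc5c, Itgb8, Kirrel3, Lphn3, Megf6, Muc15, Psca, Ror1, Scarf2 and Thsd7a, at 1.26 to 36.7 ppm in RE on average.

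**Figure D2:**
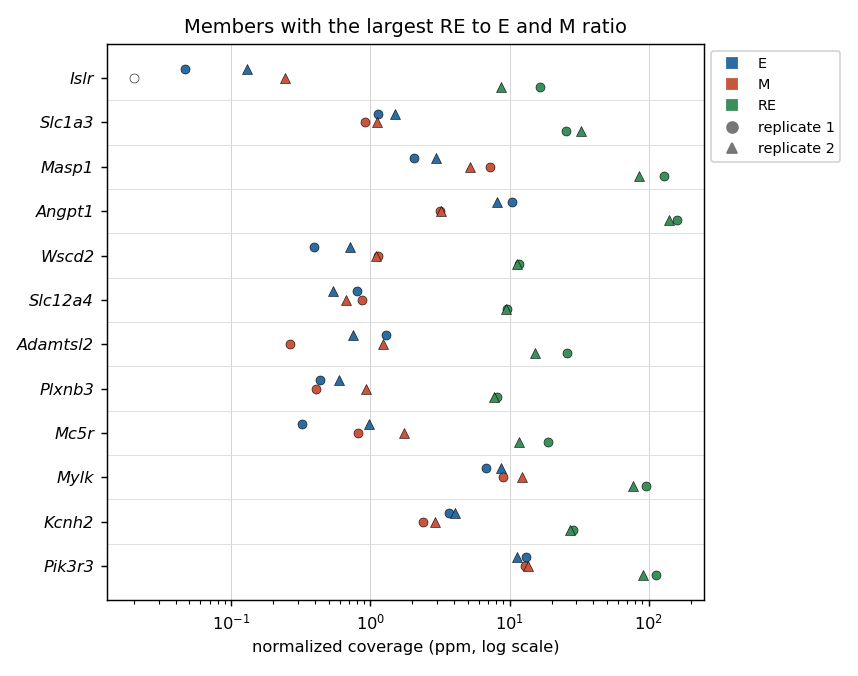
Normalized coverage in ppm (log scale) of the 12 named genes with the largest ratio, 1 point per library, coloured by stage and shaped by replicate; an open point is a value under 0.02 ppm drawn at 0.02. In every gene both RE points lie to the right of all E and M points, and the E and M points overlap in 6 of the 12.

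Channels and transporters numbered 13. Slc1a3, a glutamate transporter, was 1.14 and 1.5 ppm in E, 0.907 and 1.12 ppm in M, and 25.4 and 32.7 ppm in RE, with E slightly above M. Slc12a4, a potassium chloride cotransporter that regulates cell volume, had 0.801 and 0.535 ppm in E, 0.864 and 0.665 ppm in M, and 9.60 and 9.43 ppm in RE. Kcnh2, a voltage-gated potassium channel, stood at 3.65 and 4.04 ppm in E, 2.4 and 2.89 ppm in M, and 28.6 and 27.3 ppm in RE. The most abundant of the group was Trpm6, a magnesium channel, at 118 and 108 ppm in RE. Abca1, Abca9, Atp10b, Atp6v0a4, Gabrp, Gja5, Panx3 and Slco1a5 were among the rest, at 1.26 to 37.3 ppm.

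Regulators of transcription and RNA counted 11 genes. Trps1, a GATA-type repressor of epithelial and skeletal development, had the highest RE level of all 113 genes, at 567 and 477 ppm, against 93.6 and 137 ppm in E and 147 and 169 ppm in M. Nfkbiz, a nuclear IκB protein that is induced by NF-κB and modifies its targets, was at 58.7 and 54.3 ppm in E, 31.0 and 36.5 ppm in M, and 314 and 310.0 ppm in RE. Trps1 was higher in both M libraries than in E and Nfkbiz lower, and neither difference was called, since the log2 difference of Nfkbiz (-0.74, adjusted p = 0.0043 by limma) was under 1. Eya1 and Eya4, coactivators of homeobox proteins, had mean RE levels of 55.8 and 23.4 ppm, and A930001N09Rik, Atoh8, Bicc1, Lhx9, Nr4a3, Ppargc1a and Tle2 had 3.16 to 47.6 ppm.

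Intracellular signalling, trafficking and cytoskeletal genes formed the largest group, with 29. Mylk, the kinase that activates myosin II, stood at 6.76 and 8.63 ppm in E, 8.95 and 12.2 ppm in M, and 95.9 and 77.3 ppm in RE. Synpo, an actin-bundling protein, was listed at 37.5 and 82.1 ppm in E, 94.3 and 106 ppm in M, and 285 and 310.2 ppm in RE. Both genes had E below M below RE in every library. The scaffold gene Sash1 followed the same order, with 31.3 and 46.9 ppm in E, 51.0 and 58.2 ppm in M, and 236 and 184 ppm in RE. Pik3r3, a regulatory subunit of phosphoinositide 3-kinase, was at 13.1 and 11.3 ppm in E, 13.0 and 13.5 ppm in M, and 112 and 91.0 ppm in RE. Rassf4, a Ras-association domain protein, had 8.27 and 11.1 ppm in E, 0 and 0.0488 ppm in M, and 51.1 and 44.8 ppm in RE, and was at the floor in both M libraries. The smooth-muscle protein Cnn1, a myoepithelial marker, reached only 1.64 and 1.78 ppm in RE. The rest ran from 1.10 to 120.1 ppm, the highest being Sesn1, a stress-induced inhibitor of growth signalling.

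Metabolic enzymes were few. Mocs1, which makes the first intermediate of the molybdenum cofactor, had 56.2 and 63.9 ppm in E, 36.7 and 35.2 ppm in M, and 234 and 222 ppm in RE. Aox1, an oxidase that needs this cofactor, was at 16.0 and 21.0 ppm in E, 11.9 and 14.4 ppm in M, and 90.0 and 69.4 ppm in RE. Both enzymes were below E in both M libraries and above E in both RE libraries. Galntl2 (Galnt15), a glycosyltransferase of the mucin-type family, had 7.64 and 7.01 ppm in E, 0.763 and 1.09 ppm in M, and 29.0 and 28.1 ppm in RE. Akr1c14 and Gstm7 completed the group, at 16.4 and 3.38 ppm in RE. The last 7 genes, among them Wscd2 at 0.395 and 0.708 ppm in E, 1.13 and 1.09 ppm in M and 11.6 and 11.2 ppm in RE, were given no role here. The role groups were set by hand from general knowledge after the values were seen.

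**Figure D3:**
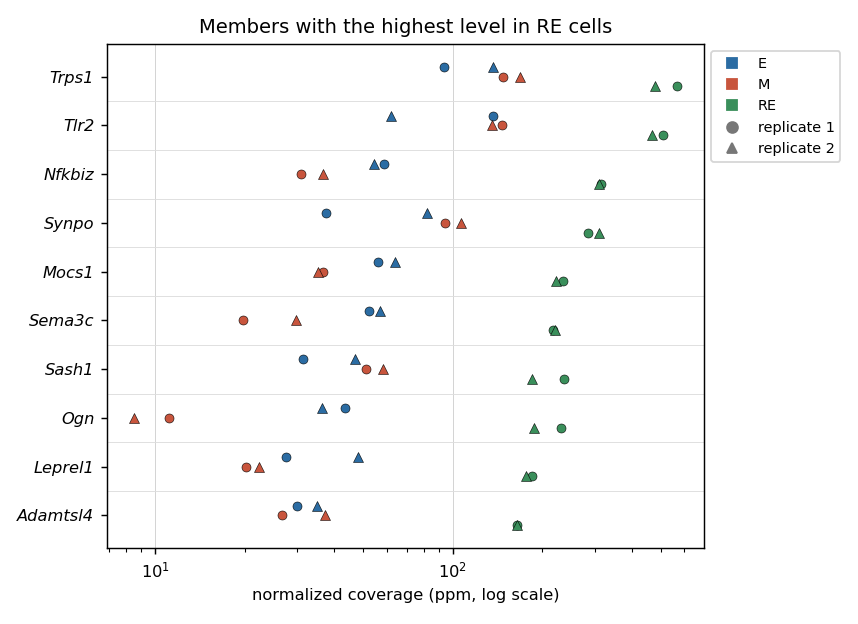
Normalized coverage in ppm (log scale) of the 10 genes with the highest mean level in RE, 1 point per library, coloured by stage and shaped by replicate. Both RE points lie to the right of all others in every gene, and Ogn, Sema3c, Nfkbiz, Mocs1 and Leprel1 have both M points to the left of both E points.

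The rule caps E and M together and orders neither, so it did not set the direction of E against M. That contrast compares the genes before and during TGFβ1 treatment. The E and M values did enter the choice through the cap, and the limma fit took its spread from the RE libraries too. The p-values and shares below thus describe genes chosen in part on the same values, and are not an independent test. Calls needed a log2 difference above 1 and a Benjamini-Hochberg adjusted p below 0.01 in limma, adjusted over all 13893 genes tested. Of the 113 genes, 24 fell in M (21.2%, against 8.35% of all genes tested), 3 rose in M (2.65%, against 8.41%) and 86 were not called. These counts include 13 genes that reached 500 bases in fewer than 2 of the E and M libraries and so were tested only because of their level in RE. In the other 100, 24 fell (24%, against 8.49% of all genes with 500 bases in 2 E or M libraries), 3 rose (3%, against 8.58%) and 73 were not called. With only the E and M libraries in the fit, 13 of these 100 were called lower in place of 24. The median log2 difference, M minus E, was -0.40, against -0.0026 over all genes tested. It was -0.35 in the 100 genes, -0.21 at a pseudocount of 1 ppm and -0.16 in the 77 genes that reached the minimum in every library. Both M libraries were below both E libraries in 60 of the genes (53.1%, against 35.6% of all genes tested) and above them in 19 (16.8%, against 35.5%). The stages overlapped in 34 (30.1%), close to the share that 35.6% and 35.5% leave over all genes tested. In the 100 genes, M was below E in 51, above in 19 and overlapping in 30. The shares over all genes under that filter are not given here, so these counts are a description. Fewer genes were called lower when either M library was left out, and the number called higher moved with single E or M libraries. The median log2 difference of the 113 genes was -0.31 without M replicate 1 and -0.49 without M replicate 2. Over all genes tested it was -0.012 and -0.015.

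Among the 24 that fell, the median level was 2.84 ppm in E, 0.214 ppm in M and 13.1 ppm in RE, compared with 1.85, 1.75 and 14.6 ppm in the 86 that were not called. Rassf4 fell most, by 6.31 on the log2 scale (SE 0.27, adjusted p = 1.38e-05 by limma), and was at least 134-fold lower in M than in E when M was taken at the floor. Edar fell by 5.55 (SE 0.22, adjusted p = 1.38e-05 by limma), which left it just above the floor. Mme fell by 4.41 (SE 0.29, adjusted p = 5.97e-05 by limma) and Prelp by 4.39 (SE 0.23, adjusted p = 2.78e-05 by limma). For Galntl2 the drop was smaller, by 2.87 (SE 0.21, adjusted p = 8.93e-05 by limma).

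Matrix genes and secreted signals made up 11 of the 24 that fell. The role groups were set by hand after the values were seen, so counts per group are a description and were not tested. Of all genes tested, 8.35% were called lower in M and 8.41% higher. Of all chosen genes, 21.2% were called lower. Of the 15 matrix genes, Clec3b, Dcn, Kazald1, Matn4, Ogn and Prelp were called lower in M and none higher by limma (1 higher at an unadjusted p below 0.05). Ogn fell by 2.02 (SE 0.19, adjusted p = 0.000249 by limma) and Matn4 by 1.82 (SE 0.22, adjusted p = 0.000786 by limma). Matrix genes outside the chosen set, counted from separate lists, leaned the opposite way. The rule shuts out genes high in M unless RE is at least 3 times higher, so this lean is in part set by the rule. Of 69 other matrix proteins tested, 37 were called higher and 10 lower in M, with a median log2 difference of 1.51. Of 40 other matrix proteases and inhibitors, 17 were called higher and 3 lower in M. Among the 13 secreted signals and inhibitors, Angpt1, Cxcl2, Pi15, Rnase10 and Sema3c fell and Fgf1 rose. Angpt1 fell by 1.49 (SE 0.17, adjusted p = 0.000653 by limma) and Sema3c by 1.17 (SE 0.20, adjusted p = 0.00316 by limma). Of the 20 surface genes, Edar, Fat2, Gprc5c, Mme, Muc15 and Ptger4 fell, and of the 5 metabolic enzymes Akr1c14, Galntl2 and Gstm7 did. Atoh8, Ppargc1a, Plcb1 and Rassf4 complete the 24, and none of the 13 channels and transporters was called by limma (5 lower and 1 higher at an unadjusted p below 0.05). Of the 24, Akr1c14, Edar, Galntl2, Mme, Ogn, Prelp, Ptger4 and Rassf4 were called in every alternative fit that tested them. Angpt1, Sema3c, Matn4, Clec3b, Dcn and Kazald1 were among those not called without M replicate 1. Sema3c was also not called without RE replicate 1 or 2, where its log2 difference stayed at -1.17. Clec3b kept its call in 5, Kazald1 in 6 and Dcn in 9 of 14 alternative fits.

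For the 3 genes that rose in M, a still higher level in RE was set by the rule, as for every chosen gene. Cmya5, a muscle protein that anchors protein kinase A, was at 0.594 and 0.367 ppm in E, 2.78 and 2.4 ppm in M, and 12.3 and 7.81 ppm in RE, and rose in M by 2.24 on the log2 scale (SE 0.31, adjusted p = 0.00139 by limma). Fyb, an adaptor protein known from T cells and platelets, had 1.32 and 1.42 ppm in E, 3.5 and 4.96 ppm in M, and 21.3 and 22.3 ppm in RE, a rise of 1.54 in M (SE 0.22, adjusted p = 0.00154 by limma). Fgf1 rose by 1.27 (SE 0.26, adjusted p = 0.00781 by limma). In Cmya5 and Fyb, as in Fgf1, the M libraries lay between E and RE without overlap. None of the 3 was called without M replicate 2, where the adjusted p was 0.0125, 0.0180 and 0.0709 respectively, and Cmya5 was also not called without M replicate 1 (adjusted p = 0.0174 by limma). Fgf1 was called in only 5 of 15 alternative fits. Masp1 missed the threshold with a log2 difference of 1.27 (SE 0.28, adjusted p = 0.0103 by limma).

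The genes that were not called include most of those with the largest ratio. Of the 86, 46 differed by less than 0.5 on the log2 scale and 20 had an adjusted p below 0.05. Islr had a log2 difference of 0.01 (SE 0.61), Pik3r3 of 0.12 (SE 0.16) and Adamtsl4 of -0.04 (SE 0.18). The standard errors show how far each of these leaves room for a change: Islr was measured at 0 to 10 reads' worth in E and M, so that a change of several-fold could not be seen at this depth. In 13 genes both M libraries were at the floor, and in none were both E libraries.

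**Figure D4:**
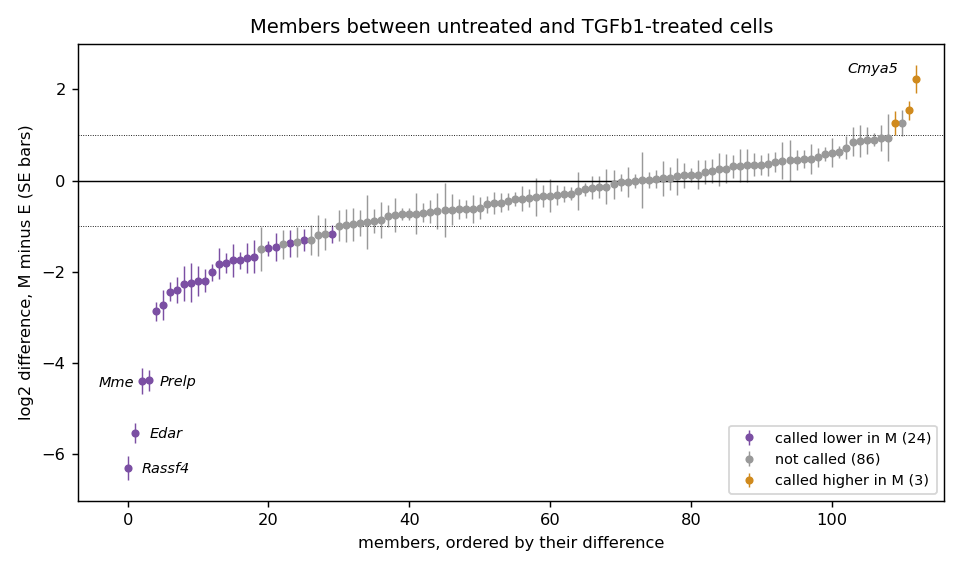
Log2 difference of M minus E for the 113 genes, ordered by size, with bars of 1 standard error from limma; dotted lines mark a log2 difference of 1 in either direction. The 24 genes called lower in M reach down to Rassf4 at -6.31, the 3 called higher reach Cmya5 at 2.24, and the 86 that were not called run through 0.

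The other genes of the pathways were counted from 23 lists of ligands, receptors, matrix proteins and regulators. The chosen genes were left out of every count of the lists in this section, because the rule fixed their direction. Totals of RE calls in the closing section include them. Among the 13780 other genes tested, 5.17% were called higher in RE than in E and 3.19% lower, and 7.16% were higher and 4.83% lower than in M. RE was set against E and M in the same fit, so both comparisons share the RE libraries. Over the lists together 207 of the 875 genes tested were called between E and RE. With just these groups in the fit, only 106 of 839 were called. The count fell without either M library, fell to very few without either RE library, and rose without either E library. The causes were not tested. Between M and RE 302 of 875 were called, and fewer without single M or RE libraries.

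Of 69 other matrix proteins, 24 were higher and 5 lower in RE than in E, with a median log2 difference of 0.90, whereas against M 9 were higher and 21 lower, with a median of -0.51. The medians over all genes tested were -0.0023 for RE minus E and -0.02 for RE minus M. Beside the chosen Bgn, Dcn, Fbln5, Matn4, Ogn and Prelp, 3 genes of the list were called higher in RE than in both other stages: Col6a1, Col9a1 and Mgp. Col7a1 was called lower than in both. Mgp, an inhibitor of calcification, was at 15.3 and 8.91 ppm in E, 0.115 and 0.117 ppm in M, and 52.6 and 39.4 ppm in RE, which is the order seen in Prelp and Ogn. Of 40 other matrix proteases and inhibitors, 9 were higher and 1 lower in RE than in E, and 6 higher and 15 lower than in M.

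In the angiopoietin and VEGF list, 4 of the 13 genes other than Angpt1 and Angpt4 were higher in RE than in E and 1 lower, while against M 1 was higher and 3 lower. Of 18 NF-κB subunits and feedback inhibitors other than Nfkbiz, 5 were higher in RE than in E and none lower by limma (2 lower at an unadjusted p below 0.05). Against M, 2 were higher and 1 lower, and Nfkbia and Tnfaip3 were higher than in both stages. Nfkbia, the IκBα inhibitor, was at 121 and 89.9 ppm in E, 165 and 166 ppm in M, and 360.4 and 365 ppm in RE. Tnfaip3, a deubiquitinase that ends NF-κB signalling, was at 86.2 and 161 ppm in E, 91.7 and 90.7 ppm in M, and 348 and 309.8 ppm in RE. The subunit Rel was called higher in RE than in E but not than in M, with 9.64 and 14.5 ppm in E, 30.2 and 30.5 ppm in M, and 41.7 and 38.5 ppm in RE. In the list of TNF ligands and receptors, 2 of the 24 genes other than Edar were higher and 1 lower than in E, and 2 were higher and 3 lower than in M. Eda, the ligand of Edar, was not called, at 1.07 and 2.84 ppm in E, 1.96 and 1.78 ppm in M, and 1.56 and 1.25 ppm in RE.

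Beside the chosen Ntng1, Plxnb3 and Sema3c, 51 guidance ligands and receptors were tested. Of these, 8 were higher and 1 lower in RE than in E, 12 were higher and 6 lower than in M, and Ntn4, Sema3a, Sema4a, Sema4b and Slit2 were higher than in both. Of 54 other ion and solute transporters, 8 were higher and 5 lower in RE than in E, and 14 higher and 6 lower than in M. Complement genes other than Masp1 had 2 higher and 1 lower of 18 against E, and 2 higher and 3 lower against M. Of 54 BMP and TGFβ family genes other than Chrdl1, a BMP antagonist, 10 were higher and 2 lower than in E, and 12 were higher and 7 lower than in M. Id2, Id3, Tgfb3, Tgfbr2 and Tgfbr3 were higher than in both stages. Growth factor genes of the EGF, FGF, IGF, PDGF and HGF families other than Fgf1 had 7 higher and 5 lower of 50 against E. Against M, 10 were higher and 7 lower. Gas6, Pdgfra and Fgfr2, a receptor for Fgf1, were called higher than in both, and Areg and Hbegf lower than in both.

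Counts in the other lists were as follows. Of 38 Wnt genes other than Nkd2 and Ror1, 5 were higher and 5 lower in RE than in E, and 5 were higher and 8 lower than in M. Fzd7 and Lgr4 were higher than in both stages, and Lgr6, Wnt7a, Wnt7b and Wnt9a were lower than in both. Of 93 AP-1, Sox and other developmental factors, 15 were higher and 5 lower than in E, and Egr2 and Sox9 were among those higher than in both. Nuclear receptors other than Nr4a3 had 6 of 34 higher and none lower by limma (2 lower at an unadjusted p below 0.05), with its relative Nr4a2 higher than in E and M. Quiescence and p53 response genes had 9 of 42 higher and 2 lower, mammary lineage genes 4 of 39 higher and 5 lower, chemokines 3 of 16 higher and 2 lower, and acute phase and mucosal genes 4 of 22 higher and 2 lower. None of the 113 genes was in the lists of cadherins and junctions, cell cycle, circadian clock, interferon-stimulated genes, interleukins or Notch. Of 69 cadherin and junction genes, 8 were higher and 9 lower than in E, and 9 higher and 21 lower than in M. Interleukins had 1 higher and 4 lower of 21 against E, and 4 and 3 against M. Interferon-stimulated genes had 4 higher and 1 lower of 41 against E, and 8 and 2 against M. Notch genes had 2 higher and 1 lower of 19 against E, and 6 and 2 against M. Of 40 cell cycle genes, none was higher and 3 were lower in RE than in E by limma (0 higher and 22 lower at an unadjusted p below 0.05), and of 20 clock genes 8 were higher and none lower (1 lower at an unadjusted p below 0.05). Against M, 6 clock genes were higher and 1 lower. Cell cycle genes had 1 higher and 0 lower than in M by limma (2 higher and 28 lower at an unadjusted p below 0.05). Counts higher and lower against M were 26 and 6 for the developmental factors and 9 and 1 for quiescence genes. They were 8 and 13 for mammary lineage genes, 4 and 2 for chemokines, and 9 and 1 for acute phase genes. Nuclear receptors had 10 higher and 0 lower than in M by limma (4 lower at an unadjusted p below 0.05).

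**Figure D5:**
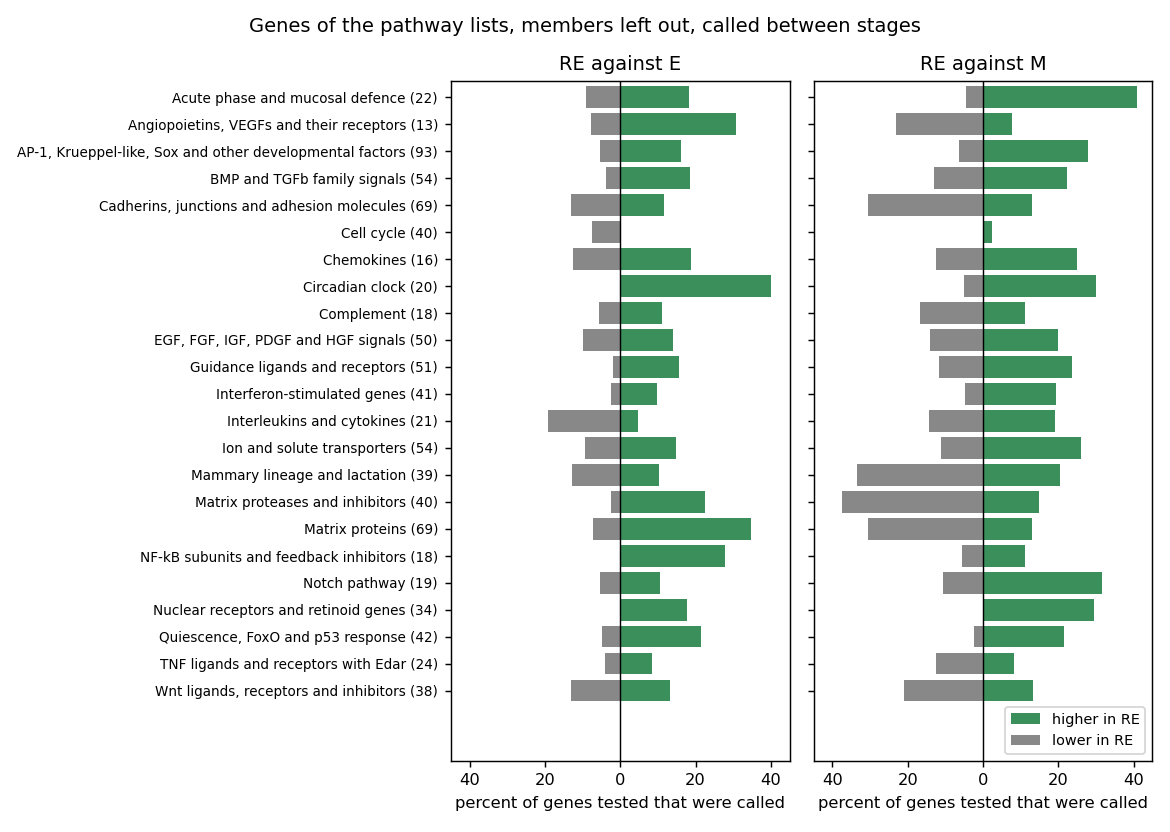
Percent of the genes tested in each of 23 lists, the 113 chosen genes left out (number tested in brackets), that were called higher (green, to the right) or lower (grey, to the left) in RE, against E on the left and against M on the right. Matrix proteins go mostly to the right against E and more to the left against M, and cell cycle genes have almost no call to the right.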

How the data were processed

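RNA-seq of 6 EpH4 libraries (E, M and RE, 2 biological replicates each per the labels) was used. The authors mapped unique reads to the mouse genome (NCBI-m37) with Bowtie and TopHat2, per the labels and methods; the step that summed reads per gene and its annotation are not given in the sources used here. The deposited table holds whole numbers per gene, read here as a coverage signal in bases and not as reads: columns total 1789125650 to 2396427835, and 44.8% to 48.4% of values from 1 to 400 are multiples of 50. How overlapping genes were counted is not given in the sources used here, so values of overlapping genes and close paralogs are uncertain.

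Library totals (ppm) were used for the rule that chose the 113 genes (3-fold, 1 ppm). For tests, TMM factors without weights (30% of log ratios and 5% of levels trimmed) were applied in R 4.3.3, the 13893 genes that reached 500 bases in 2 or more libraries were tested, and limma 3.58.1 with a trend on mean level was fitted to log2(ppm + 0.1) over all 6 libraries. DEGs needed a log2 difference above 1 and an adjusted p below 0.01. With 2 libraries a stage, p-values measure the spread between cultures of 1 cell line. The fit was tested on simulated data. Differences are M minus E, RE minus M and RE minus E. Alternatives are listed with their effect in the closing section.

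The members and gene lists were chosen with earlier results of these data known. Genes named with values are the 12 with the largest ratio among those with at least 5 ppm in the lower RE library, the 10 with the highest RE level, up to 5 in each direction called between E and M, those next to the 3-fold threshold, and further genes picked after their values were seen. Symbols were matched to RefSeq for all but 3 of the 113 genes. Promoters came from the RefSeq table of GRCm38.p6; no coordinates of the authors' build were used. Some genes that entered the counts are not reported here by name.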

Additional observations from a re-analysis of the deposited data

How the results depend on the processing

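With 2 libraries a stage, single libraries decide most counts. The number of genes that passed the rule was 293 at a fold of 2, 57 at a fold of 4 and 75 at a lowest RE level of 5 ppm. It lay between 113 and 180 when libraries were left out in turn, which can only loosen the rule. Scaling by TMM gave 115 genes, 101 of them among the 113. Members called lower in M (24) came to 10 with the minimum in every library, 11 at a pseudocount of 1 ppm and 13 with only both groups compared, and to 11 to 28 with libraries left out. Members called higher (3) came to 5 at a fold of 1.5, and to 0 to 9 with libraries left out. Choosing members on TMM-normalized ppm, an alternative added after the data were seen, gave 30 lower and 2 higher.

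Fixed-list genes, the 113 included, called in E vs. RE (239) came to 137 with only the groups compared and to 5 to 317 with libraries left out, and those in M vs. RE (334) to 172 to 391. Over all genes tested, E vs. M calls (2329) lay between 919 and 3320, M vs. RE calls (1766) between 628 and 2304, and E vs. RE calls (1262) between 9 and 2309 with libraries left out, and the last came to 627 with only the groups compared. Scaling by library totals moved the median E vs. M log2 difference of all genes to -0.29 and that of the members to -0.68, and the split of all E vs. M calls from 1169 higher and 1160 lower to 802 and 1829. The causes of these shifts were not tested. No called result reversed its direction under any alternative run, and of the named members only those in the report and Nfkbiz, Mocs1, Leprel1, Wscd2, Mc5r, Tlr2, Synpo and Masp1, which gained a call under a scaling or without an E library, changed side.

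The replicate numbers are only names. Same-numbered deviations correlated at 0.267 between E and M, 0.0579 between E and RE and 0.116 between M and RE, and a fit with the replicate number as a block called 22 members lower and 2 higher in M. The share of members with a motif over another window was not run, because promoters were at hand for too few of the members. Depth limits 13 members at the floor in both M libraries.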
